A study of Arabidopsis thaliana with 102 samples.

Results

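The regions described here are the peaks of GFP-bZIP28 that lie away from every peak of GFP-bZIP60 in Arabidopsis thaliana seedlings recovering from tunicamycin (Tm). They were chosen by overlap: a peak of any of the 3 bZIP28 lists (0, 12 and 24 h of recovery) was taken when it shared no base with any peak of the 3 bZIP60 lists pooled over time. This rule gave 348 of the 676 bZIP28 peaks, among 1143 peaks of both proteins in the series. The remaining 328 bZIP28 peaks overlapped a bZIP60 peak and are called shared peaks, and 225 of the 467 bZIP60 peaks overlapped no bZIP28 peak. The rule used peak positions only, so peak numbers, scores and widths are given as a description, whereas RNA levels and DNA sequence were not part of it.

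Seedlings were 5 days old and stood for 6 h in liquid medium with Tm (500 ng/mL) or with DMSO, the solvent, before they recovered for 0, 12 or 24 h on medium without drug. RNA-seq of whole seedlings covered bzip28-2, bzip60-2 and Col-0, the wild-type accession, each with Tm or DMSO at each time, with 3 replicates in each of 18 groups. The mutants bzip28-2 and bzip60-2 are T-DNA insertion lines. ChIP-seq with an antibody against GFP used 2 replicates per group of 2 transgenic lines with Tm or DMSO: GFP-bZIP28 driven by the constitutive 35S promoter in Col-0, which keeps its own bZIP28, and GFP-bZIP60 driven by its own promoter in bzip60-2. Each protein was represented by 1 transgenic line, so the protein, the promoter, the background and the depth of a ChIP cannot be told apart when the lists of both proteins are set side by side. The deposited lists hold Tm peaks reproducible between both replicates, so no peak has a value per replicate. Peaks that overlapped a DMSO peak by more than a set share were removed there, except where the Tm peak was far stronger. Replicates are separate samples in the labels, and nothing there tells whether they came from separate plantings, so the p-values below measure the spread between these samples.

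Tm blocks the first step of N-linked glycosylation, so that misfolded glycoproteins accumulate in the endoplasmic reticulum (ER) and the unfolded protein response (UPR) sets in. bZIP28 is a membrane-anchored transcription factor that leaves the ER upon stress, is cleaved in the Golgi and enters the nucleus as a soluble factor. bZIP60 is activated by a different route, the splicing of its mRNA by the sensor IRE1, and both factors bind the element called ERSE-I, in which a CCAAT box, the site of NF-Y factors, and a CACG core for the bZIP protein stand at a fixed spacing.

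ERSE-I was searched on both strands as CCAATNNNNNNNNNNCACG in the 300 bp around the middle of each peak. The element occurred in 30 of the 348 peaks, which cover 20 loci and, since the GFP-bZIP28 peak of P58IPK holds 2 of them, 21 distinct elements. At 10 of these loci the peak was listed at both 0 and 24 h, and their elements are printed first because these are the sites that the lists hold over the longest span of recovery. All positions below refer to the TAIR10 build, as in the deposited lists, the sequences were read from the RefSeq copy of that assembly (TAIR10.1), and each run reads 5′ to 3′ on the strand that holds CCAAT first. The capitals mark the CCAAT box and the CACG core. Flanks are shorter in runs that lie in an annotated UTR. The full runs of HRD1B and SEC61A2 hold 15 and 9 UTR bases.

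The 2 elements of P58IPK lie at chr5:749952-750030 and chr5:750012-750090 on the minus strand, and that of PDIL1-1 at chr1:7645615-7645644 on the plus strand. The run of HRD1B covers chr1:24163655-24163733 (plus), that of GFAT chr3:8701118-8701196 (minus) and that of GPT chr2:17301628-17301657 (minus). AT2G03290 holds its element within chr2:999260-999338 (plus), ROC7 within chr5:23717675-23717753 (plus) and AT1G61780 within chr1:22814232-22814261 (plus). OXS2 is represented by chr2:17490114-17490192 (minus) and AT3G03790 by chr3:961463-961541 (plus).
P58IPK: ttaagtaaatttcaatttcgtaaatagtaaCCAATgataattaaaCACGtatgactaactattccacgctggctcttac
P58IPK: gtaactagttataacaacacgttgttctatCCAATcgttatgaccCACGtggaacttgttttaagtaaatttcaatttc
PDIL1-1: taatacCCAATtagagatagcCACGtggat
HRD1B: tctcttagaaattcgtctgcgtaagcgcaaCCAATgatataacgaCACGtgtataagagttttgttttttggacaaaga
GFAT: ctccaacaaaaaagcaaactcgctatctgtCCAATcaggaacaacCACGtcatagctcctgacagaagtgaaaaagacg
GPT: atagaCCAATaaggatttgcCACGtcgctt
AT2G03290: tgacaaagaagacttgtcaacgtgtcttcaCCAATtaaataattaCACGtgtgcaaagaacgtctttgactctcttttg
ROC7: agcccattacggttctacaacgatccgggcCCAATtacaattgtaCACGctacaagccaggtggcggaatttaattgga
AT1G61780: catcaaCCAATaaaaacgttcCACGtggta
OXS2: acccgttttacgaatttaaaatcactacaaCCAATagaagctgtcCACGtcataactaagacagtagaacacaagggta
AT3G03790: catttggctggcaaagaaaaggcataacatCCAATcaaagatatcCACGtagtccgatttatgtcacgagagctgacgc
In 10 of these 11 elements CACG was followed by T, and in ROC7 it was followed by C. Over all 21 distinct elements of these peaks, 20 (95.2%) had T as the next base, as did 29 of 30 (96.7%) in shared peaks and 595 of 872 (68.2%) in the whole genome. The next 2 bases were TG, which completes the palindromic CACGTG core known as a G-box, in 11 of the 21 (52.4%), among them PDIL1-1, HRD1B, AT2G03290 and the element of P58IPK nearer to the gene start, against 14 of 30 (46.7%) in shared peaks, 7 of 10 (70.0%) in bZIP60 peaks away from bZIP28 and 241 of 872 (27.6%) in the genome. CCAAT stood first on the strand of the bound gene in 10 elements and on the opposite strand in 11. Relative to the annotated gene start, the middle of the element lay at -50 and -110 bp in P58IPK, at -105 bp in GFAT and at -25 bp in HRD1B, and in PDIL1-1 and GPT it lay inside the gene, at 20 and 71 bp.

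Of the elements found at 24 h alone, 3 are shown as examples. PDH-E1 BETA holds its element at chr1:10586684-10586762 (plus), AT4G08230 at chr4:5189731-5189760 (minus), and the deposited list names the pseudogene CYP76C8P for the element at chr3:22532955-22533033 (minus).
PDH-E1 BETA: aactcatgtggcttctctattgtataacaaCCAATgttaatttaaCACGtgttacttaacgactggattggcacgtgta
AT4G08230: agtttCCAATgagagtatgcCACGtgacaa
CYP76C8P: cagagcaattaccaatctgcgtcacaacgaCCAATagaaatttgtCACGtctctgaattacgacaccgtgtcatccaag
The middle of the last element also lies at -789 bp from the start of AT3G60957 (chr3:22533783-22535556), which the annotation lists as a pseudogene of GPT. The 24 h peaks at GPT (431 bp) and beside AT3G60957 (395 bp) aligned over 172 columns, of which 142 (82.6%) were identical, with the ERSE-I of each inside the alignment. GPT was expressed at 28.4 to 42.6 FPKM (fragments counted on a gene, scaled to its transcript length and to the mapped fragments of the library) in Col-0 treated with Tm, whereas AT3G60957 stayed at or under 0.389 FPKM in every Col-0 library. AT3G60957 was chosen after its values were seen.

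SEC61A2 and SEC61 BETA encode subunits of the Sec61 translocation channel, and their peaks hold the element with 1 changed base. The run of SEC61A2 covers chr2:14461953-14462031 (minus) and that of SEC61 BETA chr2:18588326-18588355 (plus), the capitals again marking both parts.
SEC61A2: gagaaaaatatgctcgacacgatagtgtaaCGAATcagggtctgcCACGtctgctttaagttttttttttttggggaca
SEC61 BETA: cattagCCAATtaaaaaatgcCACCtcagc

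The 348 peaks were spread unevenly over recovery, with 46 at 0 h, 37 at 12 h and 265 at 24 h. They made up 35.4% of the 130 bZIP28 peaks at 0 h, 40.2% of the 92 at 12 h and 58.4% of the 454 at 24 h. The bZIP60 lists held 250, 47 and 170 peaks at 0, 12 and 24 h. Each list came from its own libraries, so time and the depth of a ChIP cannot be told apart in these numbers. Merged where they overlapped, the 348 peaks formed 310 loci. Of these, 229 were listed at 24 h alone, 22 at 0 and 24 h, 22 at 0 h alone, 21 at 12 h alone, 14 at 12 and 24 h and 2 at 0 and 12 h. No locus was listed at all 3 times. The 22 loci of 0 and 24 h include P58IPK, PDIL1-1, HRD1B, GFAT, GPT and SEC61A2, none of which had a peak at 12 h.

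The promoter class, in which the deposited lists place a peak within 1 kb of a gene start, held 191 of the peaks (54.9%), against 236 of 328 shared peaks (72.0%). Another 32 peaks (9.20%) lay in 3′ UTRs, 33 in distal intergenic DNA, 24 in exons and 42 in the promoter classes between 1 and 3 kb. Of the 46, 37 and 265 peaks at 0, 12 and 24 h, 2, none and 30 were in the 3′ UTR class.

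**Figure D1:**
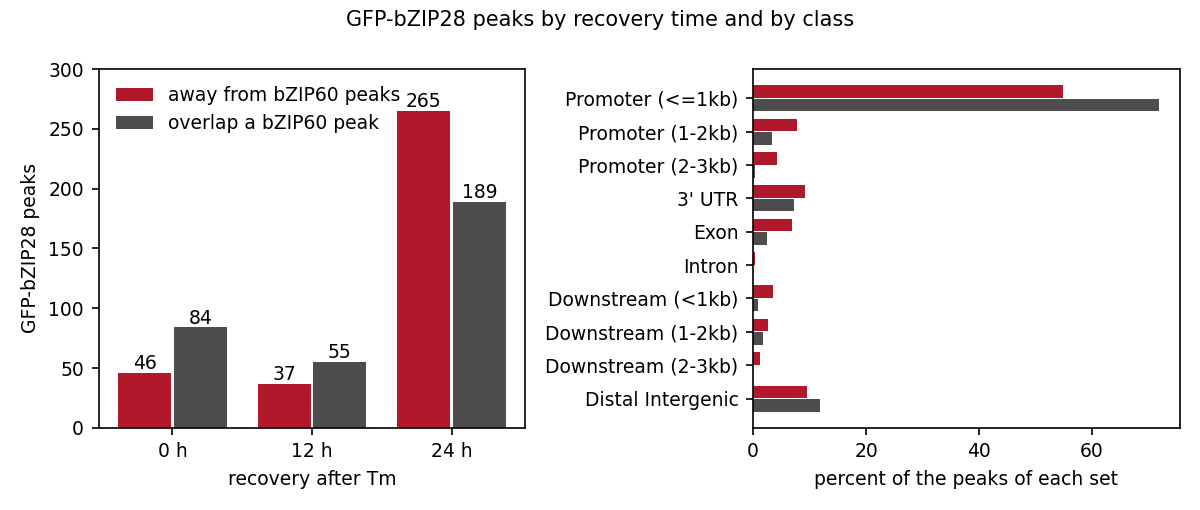
The left panel plots the number of GFP-bZIP28 peaks at 0, 12 and 24 h of recovery, with peaks away from bZIP60 in red and shared peaks in grey. The right panel gives the percent of each set in each annotation class. Peaks away from bZIP60 outnumbered shared peaks at 24 h alone (265 and 189), and the promoter class was their largest (54.9%).

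The scores of these peaks, the enrichment that MACS2 gives a peak over its input, ran from 1.87 to 10.2. Their medians were 3.42, 3.45 and 3.26 at 0, 12 and 24 h, against 4.81, 4.18 and 4.48 for shared peaks, and their median widths were 314, 167 and 366 bp, against 577.5, 720 and 636 bp. The highest score belonged to a peak beside AT2G07590, an annotated pseudogene (chr2:3186549-3187416, 10.2 at 12 h, and 9.78 at 24 h), which was 290 bp away from a bZIP60 peak. JRG21, a dioxygenase gene of the jasmonate response, followed with 10.1 at 24 h (chr3:20771577-20772200, 2 to 3 kb before the gene) and 4.87 at 0 h. LHB1B1, which encodes a chlorophyll-binding protein of the light-harvesting complex, had scores of 4.64 at 0 h and 9.09 at 24 h, and HRD1B, a ubiquitin ligase of ER-associated degradation, had 3.68 and 8.32. SEC61 BETA was listed at 24 h alone, with a score of 8.04. As in JRG21, LHB1B1 and HRD1B, the score was higher at 24 h than at 0 h in further genes named above. P58IPK had 4.84 and 4.94 at 0 and 24 h, PDIL1-1 4.49 and 5.57, GFAT 3.41 and 5.25, GPT 3.79 and 6.62, and SEC61A2 3.42 and 6.09. The median over all peaks away from bZIP60 was not higher at 24 h (3.42 at 0 h and 3.26 at 24 h). Each list came from its own libraries, so scores of different times may not share a scale.

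Most of the peaks were far from bZIP60 peaks. The median distance to the nearest one was 99011.5 bp, 285 peaks lay over 10 kb away and 30 lay within 500 bp. Nearest to the limit of the rule on the inside were peaks at PSK4, PEN3, AT4G06700 and NUDT17, which were 28, 38, 73 and 83 bp from a bZIP60 peak. Among the smallest overlaps outside it were those of peaks at AT3G33076, AT5G32312 and CYP78A7. These shared 153, 158 and 159 of their 165, 162 and 161 bases with a bZIP60 peak, so they were not close to the limit. Repeated DNA was present in both sets: in 48 of the 348 peaks (13.8%) more than 50% of the 31-base words occurred again elsewhere in the genome, against 123 of 328 shared peaks (37.5%). The peak of AT4G06474 at 12 h lay wholly in unsequenced bases. None of the 30 peaks with ERSE-I was among the repeated ones.

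The share of peaks with ERSE-I was 8.62% (30 of 348, exact Clopper-Pearson 95% interval 5.89 to 12.1%). It was 16.2% in shared peaks (53 of 328, 12.3 to 20.6%) and 4.89% in bZIP60 peaks away from bZIP28 (11 of 225, 2.47 to 8.58%). Outside repeated sequence it was 10.03% (30 of 299, 6.87 to 14.01%), against 25.9% in shared peaks (53 of 205, 20.01 to 32.4%). In windows of the same length the share was 0.206% over the genome (816 of 396412). It was 0.747% over the RefSeq promoters (205 of 27443), taken as the 300 bases before each protein-coding gene start. The intervals cover counting error only, and peaks of 1 locus at different times count separately. By time, the share was 21.7% at 0 h (10 of 46, 10.9 to 36.4%), 0 of 37 at 12 h, which allows up to 9.49%, and 7.55% at 24 h (20 of 265, 4.67 to 11.4%). At 0 h the interval overlapped that of the shared peaks of that time (25.0%, 21 of 84).

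**Figure D2:**
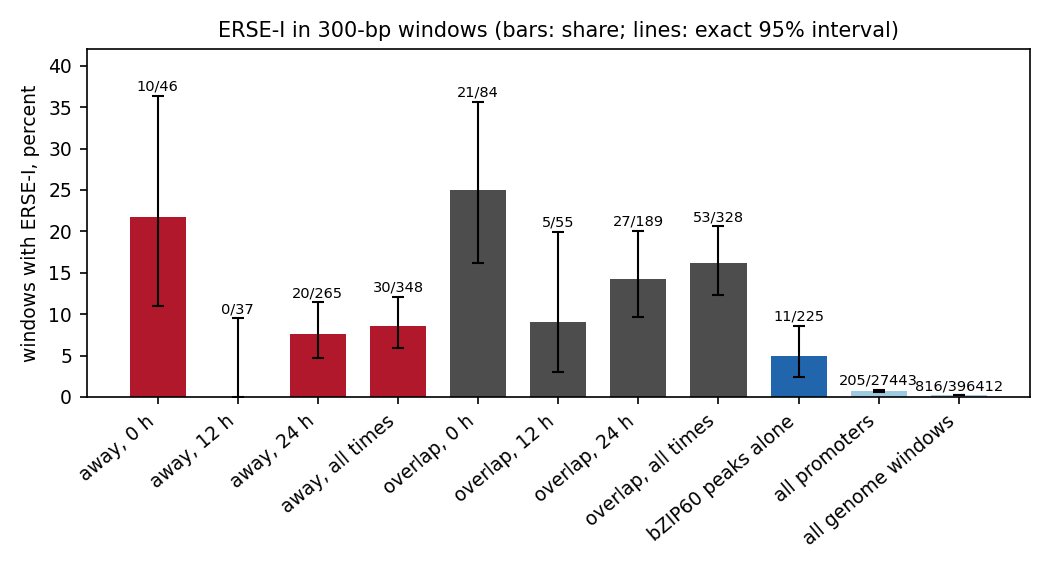
Bars give the percent of 300 bp windows with an exact ERSE-I, and lines the exact 95% interval, for peaks away from bZIP60 (red), shared peaks (grey), bZIP60 peaks alone (blue), and all promoters and genome windows (light bars). Among the peaks away from bZIP60 the share was 21.7% at 0 h, 0 of 37 at 12 h and 7.55% at 24 h.

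ERSE-I was found in promoter-class peaks alone among these 348. Of the 191 peaks of that class 15.7% held it (30, interval 10.9 to 21.7%), against 0 of the 157 peaks of other classes, which allows up to 2.32%. The element sat close to the middle of the peak, at a median distance of 25.5 bp and within 50 bp in 25 of the 30. Relative to the gene start its middle ran from -755 bp, at PBS2, to 100 bp, at AT2G20670, with a median of -61 bp. Peaks that scored above the median of their list held the element in 21 of 120 cases (17.5%), and the others in 9 of 228 (3.95%). With 1 changed base allowed, as in SEC61A2 and SEC61 BETA, 17.2% of the peaks held it, against 26.5% of shared peaks and 3.53% of genome windows.

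Other elements were searched in the same windows. UPRE-I (TGACGTGG or TGACGTGA) was present in 16 of 348 peaks (4.60%, interval 2.65 to 7.36%), among them GFAT and AT3G03790, against 1.96% of promoters. Shared peaks held it in 9.45% and bZIP60 peaks away from bZIP28 in 6.22%. In the promoter class it was in 6.81% of these peaks, 11.4% of shared peaks and 8.75% of bZIP60 peaks away from bZIP28. The W-box (TTGACC or TTGACT), the core site of WRKY factors, was present in 34.2% of these peaks (29.2 to 39.4%). Shared peaks held it in 29.3%, promoters in 32.3% and bZIP60 peaks away from bZIP28 in 40.4% (34.0 to 47.2%). In the promoter class it was in 31.9% of these peaks, 30.9% of shared peaks and 39.4% of bZIP60 peaks away from bZIP28. The CCAAT box alone was in 54.0% of the peaks and 51.9% of promoters, and the ACGT core in 49.1% and 49.0%. In the 191 promoter-class peaks alone, the CCAAT box was in 64.4% (57.2 to 71.2%) and the ACGT core in 61.3% (54.0 to 68.2%). Shared peaks of that class held each of them in 60.2%, and bZIP60 peaks away from bZIP28 in 51.25% and 71.25%. ERSE-II (ATTGGNNCACG) was in 0 of 348, which allows up to 1.05%. The windows of these peaks had a median GC content of 35.7%, against 37.3% in shared peaks and 31.3% in promoters, and no test was made between the sets.

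The 191 promoter-class peaks name 162 genes, called bound genes here, of which 130 are annotated as protein coding. A peak of this class can stand near another gene as well: 42 of the 191 had a second gene start within 1 kb of their middle. Of these genes 123 exceeded 1 FPKM in some library and entered the tests, 37 exceeded it in none, and 2 were not listed in the RNA-seq data. The bound genes tested had a median of 23.2 FPKM over all libraries, against 11.1 for all 21864 genes tested. The 20 bound genes with ERSE-I include 19 tested ones, with a median of 65.3 FPKM, and the 104 tested genes without it had a median of 16.9 FPKM. Genes named by 12 h peaks were low, with a median of 0.632 FPKM, and just 8 of those 15 genes were tested. AT4G08345, a tRNA-Leu gene, was listed at 0 in every library but 1 of Col-0 with Tm at 12 h (23.6 FPKM), and AT3G29771 at 0 in all of them. ABCI7 was the exception among the 12 h genes chosen for their score, with 51.6 to 74.4 FPKM in Col-0 and no difference between Tm and DMSO that passed the test.

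The summed FPKM of the 54 libraries ran from 819066 to 918448. Absolute depth is unknown, and genes at the level of single reads give relative depths of 0.816 to 1.28 of the median library. All libraries expressed leaf and root genes of whole seedlings, from RBCS1A of the shoot (3112 to 28431 FPKM) to the root hair genes EXPA7, COW1 and LRX1, each above 1 FPKM in every library. In bulk seedlings, fewer cells of a type and less RNA per cell cannot be told apart. The bZIP28 transcript itself was not reduced throughout the libraries labelled bzip28-2: at 0 h with DMSO it had 25.0, 23.0 and 26.1 FPKM there and 9.93, 10.9 and 12.3 FPKM in Col-0, and at 24 h with Tm it had 12.7, 14.9 and 13.8 FPKM, against 26.1, 25.2 and 26.2 FPKM in Col-0. bZIP60 had 116, 119 and 95.4 FPKM in libraries labelled bzip60-2 and 205, 216 and 208 FPKM in Col-0 at 0 h with Tm. An FPKM over the whole gene does not tell which transcript a T-DNA line still makes, so it is no check of either label, and the mutants are named by their labels below. Some libraries stood apart from their group. In replicate 2 of bzip28-2 at 24 h with Tm, P58IPK had 56.1 FPKM, against 91.5 and 106 in replicates 1 and 3, and RBCS1A had 11138, against 5102 and 3112 FPKM. In replicate 2 of bzip60-2 at 24 h with DMSO, RBCS1A had 13467 FPKM, against 26690 and 24782 in replicates 1 and 3, and LHB1B1 had 455, against 1898 and 1939 FPKM.

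More bound genes were higher than lower with Tm in Col-0 at every time. A gene was called with limma at a Benjamini-Hochberg adjusted p below 0.01 and an absolute log2 fold change over 1, on log2(FPKM + 1), which understates the change of low genes. At 0 h 18 of 123 bound genes were called higher in Tm and 1 lower, where 0.627% and 0.325% of all tested genes were. At 12 h the counts were 44 and 1, where 7.18% and 1.78% of all genes were called, and at 24 h they were 34 and 5, where 7.39% and 3.22% were. The median log2 fold change of the bound genes was 0.08, 0.52 and 0.51 at 0, 12 and 24 h, against 0, 0.08 and 0.04 for all genes. The 106 tested genes of promoter-class shared peaks had medians of 0.63, 1.49 and 1.36, with 42, 60 and 58 called higher. Called at any time were 53 bound genes higher and 7 lower, and 13 were higher at all 3 times. For calls over several times no share of all tested genes is given, so these counts are a description only. Without 1 replicate the count of calls at 0 h fell to between 1 and 9, the lowest without Tm replicate 3.

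At 0 h, 9 bound genes with ERSE-I and 9 without it were called higher, out of groups of unequal size. Of the 19 genes with ERSE-I, 9, 11 and 8 were called higher at 0, 12 and 24 h and none lower, with median log2 fold changes of 1.14, 1.36 and 0.95. Of the 104 without it, 9, 33 and 26 were called higher and 1, 1 and 5 lower, with medians of -0.01, 0.42 and 0.44. Genes that were called higher at 12 or 24 h but not at 0 h numbered 4 of 19 with ERSE-I and 31 of 104 without. No share of all tested genes is given for that pattern. For the 0 called lower with ERSE-I, limma gave an unadjusted p below 0.05 with a lower level in Tm in 1 gene at each time.

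**Figure D3:**
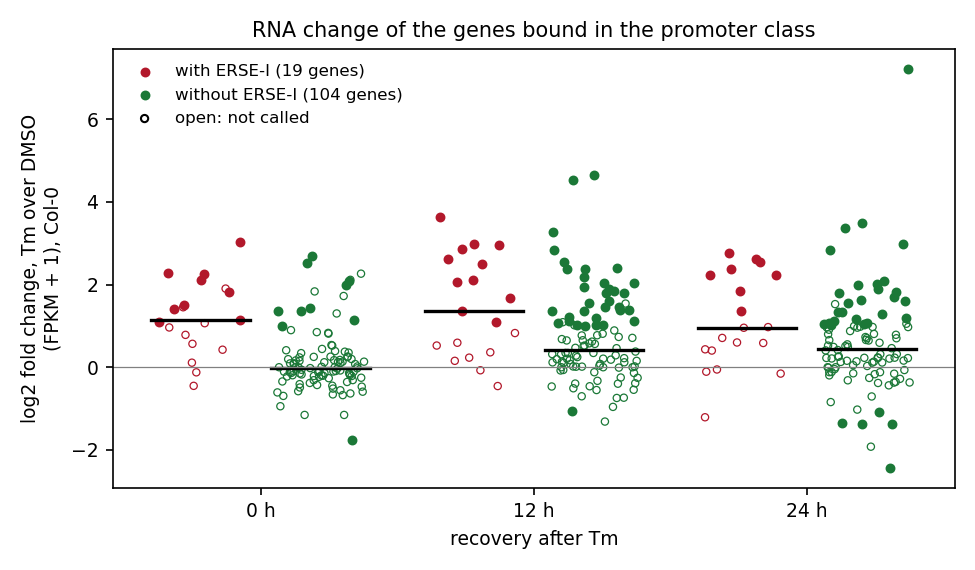
Each point is a bound gene, plotted by its log2 fold change in Col-0, Tm over DMSO, on FPKM + 1, at 0, 12 and 24 h of recovery. Filled points passed the call, open points did not, and the black lines are medians, which for genes with ERSE-I (red) were 1.14, 1.36 and 0.95 and for those without (green) were -0.01, 0.42 and 0.44.

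The bound genes P58IPK, PDIL1-1, HRD1B and ROC7 were called higher in Tm at all 3 times. P58IPK is a DnaJ-type cochaperone of the ER chaperone BiP. It had 149, 186 and 168 FPKM with Tm and 28.7, 36.7 and 36.6 FPKM with DMSO at 0 h, then 229, 244 and 231 FPKM against 27.2, 28.3 and 31.3 FPKM at 12 h, and 166, 140 and 179 FPKM against 26.7, 34.9 and 29.8 FPKM at 24 h. The groups did not overlap at any time, and the log2 fold changes were 2.27 ± 0.13, 2.98 ± 0.07 and 2.37 ± 0.13 (SE, n = 3 each, limma adjusted p 0.00142, 1.96e-05 and 0.000181). PDIL1-1 is a protein disulfide isomerase, which forms and reshuffles disulfide bonds in the ER. It had 727, 900 and 794 FPKM with Tm and 180, 173 and 203 FPKM with DMSO at 0 h, and its log2 fold changes were 2.11 ± 0.11, 2.85 ± 0.07 and 2.75 ± 0.09. HRD1B is one of the ubiquitin ligases that mark misfolded ER proteins for the proteasome. It had 254, 272 and 278 FPKM with Tm, against 27.9, 33.6 and 35.4 FPKM with DMSO at 0 h, and 277, 342 and 291 FPKM against 20.8, 25.1 and 24.5 FPKM at 12 h, a log2 fold change of 3.64 ± 0.11, the highest of the bound genes with ERSE-I at that time. ROC7, a cyclophilin, was called higher at all 3 times, by 1.41, 2.11 and 2.24 on the log2 scale.

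Of 25 genes listed as ER folding genes, P58IPK and PDIL1-1 had a promoter-class peak away from bZIP60, and CNX1 and SDF2 had one in their 3′ UTR, while 16 had a shared peak. Tm raised 18, 20 and 20 of the 25 at 0, 12 and 24 h, with medians of 2.27, 2.85 and 2.17. Of 9 genes of ER-associated degradation, HRD1B had such a peak and 5 had a shared one, and 7 of the 9 were called higher at each time. None of the 11 UPR regulators had a promoter-class peak of this set, while 3 had a shared peak and 3 a bZIP60 peak away from bZIP28. The sensor IRE1B had a peak of this set in an exon, with a score of 2.95, and its log2 fold changes of 0.22, 0.58 and 0.26 did not pass the call.

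Other bound genes act in sugar nucleotide supply, N-glycosylation and translocation. Of those described here, GPT and SEC61A2 belong to a gene list, GFAT, SEC61 BETA and AT1G27350 were named for their score or difference, and AT2G44660, AT4G24920 and AT5G50460 were chosen after their values were seen. GFAT makes glucosamine phosphate, the entry to UDP-GlcNAc synthesis, and GPT transfers GlcNAc phosphate to dolichol, the step that Tm inhibits. GFAT had 28.7, 35.6 and 32.9 FPKM with Tm and 6.06, 5.63 and 6.37 FPKM with DMSO at 0 h, 32.4, 35.3 and 33.7 FPKM against 3.18, 3.64 and 3.61 FPKM at 12 h, and 22.5, 23.2 and 24.6 FPKM against 3.64, 4.98 and 4.05 FPKM at 24 h. It was higher in Tm by 2.25 ± 0.10, 2.96 ± 0.07 and 2.23 ± 0.12. GPT had 34.2, 42.6 and 42.3 FPKM with Tm and 8.46, 12.3 and 10.7 FPKM with DMSO at 0 h, and was higher by 1.83 ± 0.16, 2.05 ± 0.04 and 1.37 ± 0.13. Neither gene's groups overlapped at any of the 3 times. AT2G44660, of the ALG6/ALG8 glucosyltransferase family, was called higher at 0 and 12 h (1.37 and 1.38).

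Channel subunits had smaller log2 fold changes than GFAT, at high levels. SEC61 BETA had 895, 1094 and 1049 FPKM with Tm and 361, 363 and 459 FPKM with DMSO at 0 h, and it was higher by 1.36, 1.36 and 1.04 at 0, 12 and 24 h. SEC61A2, whose reads may be shared with its close paralogs, passed the call at 12 h alone (1.37), with 423, 432 and 470 FPKM in Tm and 171, 166 and 174 FPKM in DMSO. AT4G24920 and AT5G50460, both of the Sec61 gamma family, had fold changes of 1.44, 2.03 and 1.55 and of 1.72, 1.90 and 0.96, of which those of AT4G24920 at all times and that of AT5G50460 at 12 h were called. AT1G27350, annotated as a RAMP4 protein, which associates with the channel in animals, was called at 12 h (2.41), and it has a near-identical paralog. Of 10 genes listed for translocation and N-glycosylation, GPT and SEC61A2 had such peaks, none had a shared peak and 1 had a bZIP60 peak away from bZIP28. Called higher at 0, 12 and 24 h were 2, 4 and 3 of the 10.

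Some bound genes act in transport, of which AT4G01810 was chosen after its values were seen. AT2G03290, a p24 family member that cycles between ER and Golgi, had 2.85, 2.18 and 2.30 FPKM with Tm and 0.0693, 0.249 and 0.349 FPKM with DMSO at 0 h, and 5.38, 4.70 and 6.68 FPKM against 0, 0.0434 and 0.168 FPKM at 24 h. AT4G01810, of the Sec23/Sec24 family of coat proteins, was higher by 1.14, 1.47 and 1.08. AT5G17760, an ATPase of the P-loop type, was among the bound genes without exact ERSE-I that were higher at all 3 times, with 68.9, 91.5 and 77.6 FPKM in Tm and 13.9, 9.29 and 16.6 FPKM in DMSO at 0 h. The syntaxin SYP73 had 2 peaks, with scores of 5.17 at 12 h and 7.53 at 24 h, and stayed between 0.157 and 0.91 FPKM in all libraries.

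Several bound genes without ERSE-I were called at 12 or 24 h but not at 0 h. PCR1, of the plant cadmium resistance family, had 68.4, 46.0 and 37.8 FPKM with Tm and 0.235, 0.414 and 3.64 FPKM with DMSO at 12 h, and 254, 107 and 232 FPKM against 0.448, 0.31 and 0.0566 FPKM at 24 h. At 0 h both groups were at or under 0.19 FPKM, and the log2 fold changes were -0.06, 4.64 and 7.21. NHL3, of a family linked to pathogen resistance, had 384, 330 and 408 FPKM with Tm and 29.1, 38.2 and 39.5 FPKM with DMSO at 24 h, with fold changes of -0.45, 2.55 and 3.36. HSP70-2, a heat shock chaperone and the one gene of 14 listed for the cytosolic heat shock response with such a peak, gave -0.49, 2.37 and 1.79, the glutathione transferase GSTU8 0.24, 1.45 and 1.98, and the hydrolase gene NUDT17 -0.20, 1.93 and 2.01. Late calls also came from the SNARE gene VAMP723 (1.79 and 1.18 at 12 and 24 h) and from PNG1 (1.39 and 1.07), a peptide N-glycanase that strips glycans from misfolded proteins. AT4G38560 (3.26 and 1.83) and AT5G64401 (4.52 and 3.48) each overlap another gene, and the study's separate read counts used strand, but whether the deposited FPKM did is not given in the sources used here. AT4G12490, called at 24 h (2.83), belongs to a family of near-identical neighbours.

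Genes of 3′ UTR peaks had median log2 fold changes of -0.04, 0.63 and 0.38 at 0, 12 and 24 h over the 27 tested of 29 genes. Of these 27, 3, 12 and 10 were called higher and none lower. Of all tested genes 0.627%, 7.18% and 7.39% were called higher and 0.325%, 1.78% and 3.22% lower. At such shares a set of 27 can lack lower calls, so their absence is no result. The genes singled out from the 3′ UTR class and JRG21 were chosen after their values were seen. The 3 called at all times were CNX1, an ER lectin chaperone (2.71, 2.94 and 2.26), SDF2, an ER protein needed for the biogenesis of receptor kinases (1.90, 2.43 and 2.15), and UTR3, a nucleotide sugar transporter (2.73, 2.98 and 2.02). These 3 genes are also named by bZIP60 lists, and the nearest bZIP60 peak lay 2192, 1671 and 1612 bp from the 24 h peaks of CNX1, SDF2 and UTR3. In contrast, WRKY70, a regulator of salicylic acid responses, had -0.36, 4.37 and 4.59, and LURP1, a pathogen response gene, 0.01, 5.18 and 7.03. WRKY70 was the single gene of 25 listed for salicylic acid and defence with a peak of this set, while 19 and 21 of the 25 were called higher at 12 and 24 h.

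JRG21 carried the second highest score and one of the largest late differences. Its FPKM were 176, 205 and 222 with Tm and 0, 0.253 and 0.164 with DMSO at 24 h, a log2 fold change of 7.47 ± 0.13. At 12 h, when it had no peak, it had 0.439, 1.84 and 2.77 FPKM with Tm and 0.175, 1.26 and 0.0626 FPKM with DMSO, and the groups overlapped. LHB1B1 changed direction instead. It had 897, 1119 and 805 FPKM with Tm and 214, 228 and 266 FPKM with DMSO at 0 h, and 675, 395 and 568 FPKM against 4067, 2012 and 2936 FPKM at 24 h, with log2 fold changes of 1.98 ± 0.15 and -2.43 ± 0.33. Near-identical genes of its family can share its reads, and its peak lies between it and AT2G34420. Beside LHB1B1, the genes called lower in Tm at 24 h were the carbonic anhydrase CA2 (-1.35), AT5G65220 of the ribosomal L29 family (-1.38), AT2G15880 (-1.37) and AT1G78820 (-1.08). AT2G40113 was called lower at 0 h (-1.77) and AT4G24700 at 12 h (-1.05).

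Whether the response of bound genes differed without bZIP28 was asked of log2(Tm/DMSO) in each replicate, bzip28-2 minus Col-0, with limma at an unadjusted p below 0.01. In libraries labelled bzip28-2 the response was lower in 10 bound genes at 0 h and higher in 0, where 0.755% and 0.718% of all tested genes were lower and higher. At an unadjusted limma p below 0.05, 25 were lower and 3 higher at 0 h. For counts at that limit, here and below, the share of all tested genes is not given. The shares at a p below 0.01 are no measure for them. At 12 h 14 were lower and 7 higher, where 6.1% and 3.45% of all genes were, and at 24 h 7 were lower and 1 higher, where 2.7% and 1.85% were. After adjustment over all genes at 0.05, limma kept 0, 12 and 0 of these calls at 0, 12 and 24 h. The replicate values of bzip28-2 and Col-0 did not overlap in any of the 39 called differences. With 3 values against 3, a p below 0.01 makes such separation likely in advance, so it is no further support. The medians were -0.10, -0.09 and -0.15 over the bound genes.

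Bound genes with ERSE-I had calls in the lower direction alone in bzip28-2. Their counts were 6, 6 and 3 of 19 at 0, 12 and 24 h, with medians of -0.53, -0.40 and -0.59, and the difference was below 0 in 17, 14 and 15 of the 19. Bound genes without ERSE-I had 4, 8 and 4 of 104 lower and 0, 7 and 1 higher, and 58, 61 and 66 of the 104 were below 0. For comparison, the genes of promoter-class shared peaks had 12, 18 and 10 lower and 1, 17 and 3 higher. Of all tested genes 0.755%, 6.1% and 2.7% were lower and 0.718%, 3.45% and 1.85% higher at 0, 12 and 24 h. At any time 11 of the 19 genes with ERSE-I were lower and 0 higher, and 13 of the 104 without it were lower and 7 higher. The share of all tested genes called at any time is not given, so the any-time counts are a description only.

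P58IPK had the largest difference among genes with ERSE-I at 0 and 12 h. With Tm it reached 72.4, 65.2 and 71.7 FPKM in bzip28-2, against 149, 186 and 168 FPKM in Col-0 at 0 h, and 137, 117 and 124 FPKM, against 229, 244 and 231 FPKM at 12 h. With DMSO at 0 h it had 38.8, 35.5 and 30.4 FPKM in bzip28-2 and 28.7, 36.7 and 36.6 FPKM in Col-0, which overlapped. The response differed by -1.29 ± 0.12 at 0 h and by -1.01 ± 0.09 at 12 h (SE, n = 3 each, limma p 5.5e-05 and 4.9e-05), and the -0.99 ± 0.40 at 24 h did not pass (limma p 0.0486). Within bzip28-2 the Tm libraries were above the DMSO libraries for P58IPK at every time, with no overlap.

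PDIL1-1 had 683, 669 and 598 FPKM with Tm in bzip28-2, against 857, 936 and 941 FPKM in Col-0 at 12 h, and its response differed by -0.80, -0.69 and -1.04 at 0, 12 and 24 h, of which that at 12 h passed. GFAT differed by -0.63, -0.81 and -1.09, HRD1B by -0.44, -0.93 and -0.81, and ROC7 by -0.26, -0.60 and -1.06, and in all 3 genes the call was at 12 h. AT2G03290 differed at 0 h (-0.82 ± 0.21) and at 24 h (-1.93 ± 0.20), where its Tm values were 0.919, 0.217 and 0.759 FPKM in bzip28-2 and 5.38, 4.70 and 6.68 FPKM in Col-0. GPT differed by -0.53 ± 0.10 at 0 h, with 33.5, 29.6 and 34.9 FPKM in bzip28-2 and 34.2, 42.6 and 42.3 FPKM in Col-0 with Tm. Those Tm values overlap, while its DMSO values of 13.1, 12.4 and 12.4 FPKM in bzip28-2 were all above the 8.46, 12.3 and 10.7 FPKM of Col-0.

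Further bound genes were lower in bzip28-2. AT1G27350 had -1.33 and -0.94 at 0 and 12 h, AT2G44660 -0.58 at 0 h, AT4G17420 -0.68 at 0 h, SEC61 BETA -0.39 at 12 h, and AT1G61780 -0.57 and -0.59 at 0 and 24 h. PDH-E1 BETA, a plastid pyruvate dehydrogenase subunit, was lower at 0 and 24 h (-0.45 and -0.73). By contrast, AT5G17760 had 0.16, 0.29 and 0.27, with no call. Among genes of 3′ UTR peaks, CNX1 had -0.40, -1.12 and -1.37 and SDF2 -0.53, -0.49 and -0.93, with calls at 12 and 24 h, and UTR3 had calls at 0 and 12 h (-0.60 and -0.53). Of the 25 ER folding genes 5, 10 and 8 were called lower in bzip28-2 at 0, 12 and 24 h.

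**Figure D4:**
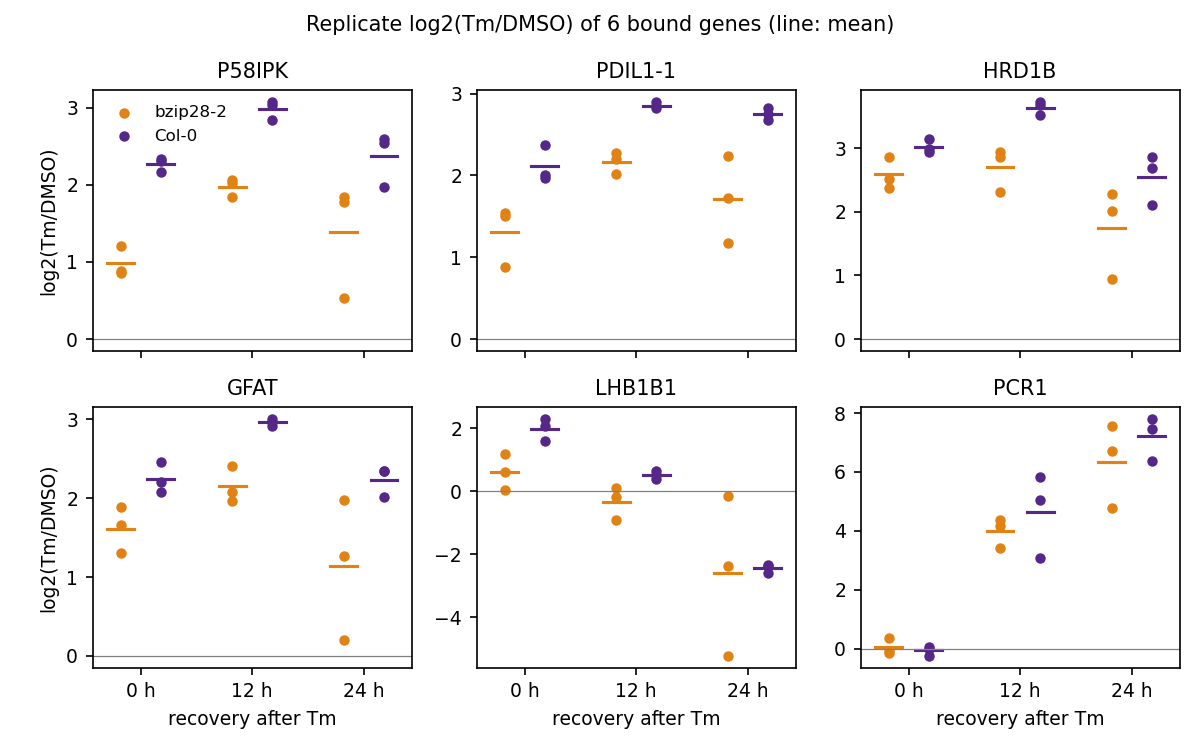
Points are the 3 replicate values of log2(Tm/DMSO) on FPKM + 1 for 6 bound genes at 0, 12 and 24 h, bzip28-2 in orange and Col-0 in purple, with lines at the means. The differences between the means were -1.29, -1.01 and -0.99 for P58IPK, and LHB1B1 and PCR1 are shown as genes without ERSE-I.

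PCR1, which was called in Col-0 at 12 and 24 h, had 103, 220 and 32.4 FPKM with Tm in bzip28-2 and 254, 107 and 232 FPKM in Col-0 at 24 h, which overlapped, and its differences did not pass. NHL3, HSP70-2 and WRKY70 had no call either. JRG21 had calls of opposite sign at 0 h (-1.37) and 12 h (2.02), and at 24 h replicate 2 of bzip28-2 had 20.8 FPKM with Tm, against 158 and 267 FPKM in the other 2. LHB1B1 differed at 0 h (-1.37), with 634, 471 and 865 FPKM in bzip28-2 and 897, 1119 and 805 FPKM in Col-0 with Tm. AT5G54165 was higher in bzip28-2 at 12 h (1.19), with 9.49, 8.89 and 9.74 FPKM with Tm, against 3.97, 2.90 and 4.10 FPKM in Col-0.

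Among bound genes of promoter-class peaks, the largest called differences in bzip28-2 at 12 h were in XTH14 and AT5G02580. XTH14, a cell wall xyloglucan enzyme expressed in roots, had 9.80, 7.93 and 12.0 FPKM with Tm in bzip28-2, against 50.6, 57.2 and 27.6 FPKM in Col-0, a difference of -1.69 ± 0.27. AT5G02580, annotated as an argininosuccinate lyase, had 2.02, 1.67 and 1.06 FPKM, against 7.67, 5.47 and 8.10 FPKM, a difference of -1.70 ± 0.31. Both were also lower at 24 h (-1.34 and -1.80). The 3 root hair markers moved in the same direction at 12 h: EXPA7 by -2.09, COW1 by -1.24 and LRX1 by -1.43, all called, while the shoot markers RBCS1A and LHCB1.1 had -0.27 and -0.20. EIR1 (PIN2), the other root marker, had 5.47, 9.86 and 11.3 FPKM with Tm in bzip28-2 at 12 h. These overlapped the 8.07, 6.58 and 13.0 FPKM of Col-0, and the DMSO values of both overlapped too. The part of root hair RNA in the results for XTH14 and AT5G02580 was not tested.

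The comparison of bzip60-2 with Col-0 uses the same Col-0 libraries, so its values are given beside those of bzip28-2 and no correlation between both is given. In libraries labelled bzip60-2 the response of bound genes was lower in 2 and higher in 0 at 0 h. Of all genes 0.979% were lower and 0.242% higher at that time. An unadjusted limma p below 0.05 was reached by 7 lower and 2 higher bound genes, with no share of all genes at that limit. At 12 h 9 were lower and 8 higher, where 6.23% and 2.81% of all genes were, and at 24 h 7 were lower and 4 higher, where 2.19% and 2.53% were. Of the 19 genes with ERSE-I, 1, 0 and 4 were lower and 0, 0 and 1 higher at 0, 12 and 24 h, and 9, 8 and 13 of the 19 were below 0. At 12 h, with no call among them, limma gave an unadjusted p below 0.05 in 1 higher and 0 lower.

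P58IPK differed by -0.37, -0.17 and -0.35 in bzip60-2, of which that at 0 h passed, although its Tm levels of 160, 156 and 147 FPKM at 0 h overlapped the 149, 186 and 168 FPKM of Col-0. PDIL1-1 had -0.53, 0.14 and -0.69 and AT2G03290 -0.70, -0.06 and -0.92, with calls at 24 h, and ROC7 and PDH-E1 BETA were called at 24 h too (-0.72 and -0.56). HRD1B had -0.24, -0.15 and -0.20, with no call. AT3G06750 was the gene with ERSE-I called higher (1.19 at 24 h). Among genes without the element, AT4G38560 was lower at 12 h (-2.14). EXPA7, COW1 and LRX1 had -1.07, -1.02 and -1.15 at 12 h, of which LRX1 was called, beside -1.38 for XTH14, which did not pass. The root marker EIR1 had 0.31 at 12 h, with no call. AT1G42980, whose 24 h peak is 144 bp from a bZIP60 peak and stands next to the bZIP60 gene, was listed at 0 in all 18 bzip60-2 libraries and had 0.694 to 1.44 FPKM in Col-0 with Tm. It was chosen after its values were seen.

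**Figure D5:**
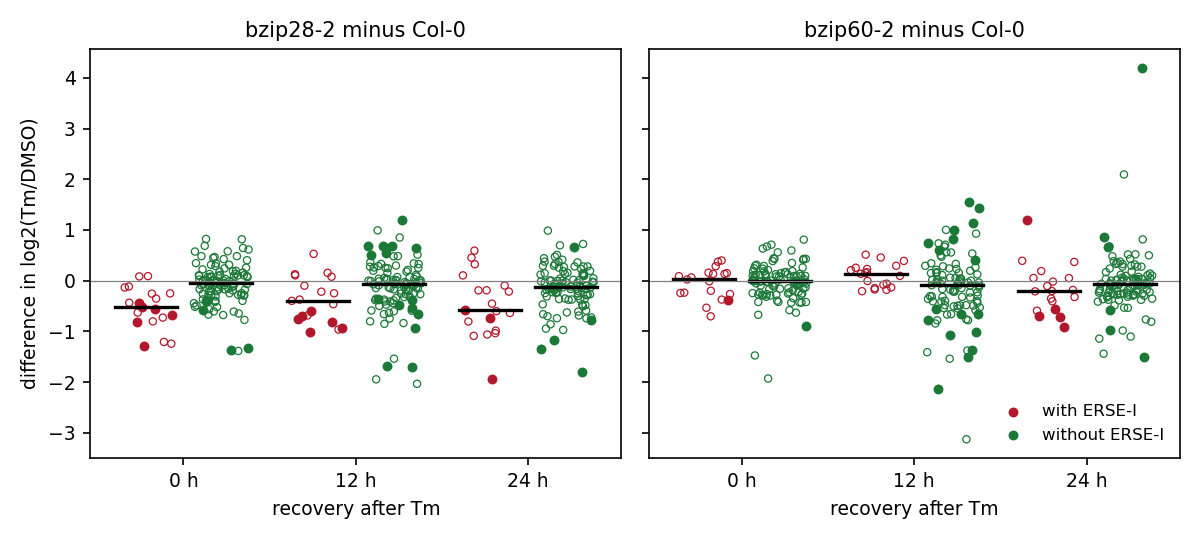
Points are bound genes, plotted by the difference of log2(Tm/DMSO) between mutant and Col-0 at 0, 12 and 24 h, bzip28-2 on the left and bzip60-2 on the right. Filled points had a limma p below 0.01 and lines are medians, which for genes with ERSE-I (red) in bzip28-2 were -0.53, -0.40 and -0.59.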

How the data were processed

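RNA-seq and ChIP-seq of whole Arabidopsis thaliana seedlings were analysed from the processed files. Per the submitters' processing notes the tools were FastQC 0.11.5, cutadapt 1.8.1, Bowtie 1.1.2, Bowtie2 2.2.4, TopHat2 2.0.14, Cufflinks 1.3.0, SAMtools 1.8 and MACS2 2.1.2, with the TAIR10 build. The authors deposited FPKM from Cufflinks for 34133 genes in 54 libraries, with no stated scaling between libraries. For each protein and time the authors deposited 1 list of Tm peaks against input, reproducible over 2 replicates, without those overlapping a DMSO peak beyond a set share unless far stronger in Tm, with a score per peak, taken to be the signalValue of MACS2.

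The peaks, gene lists and tests were chosen with earlier results of these data known. Groups came from the labels. Of the genes listed, 21864 exceeded 1 FPKM in some library and were tested on log2(FPKM + 1) with limma 3.58.1 (R 4.3.3, mean-variance trend). Tm and DMSO were compared in Col-0 at an adjusted p below 0.01 and an absolute log2 fold change over 1. Mutants and Col-0 were compared on log2(Tm/DMSO) per replicate number, at an unadjusted p below 0.01. The count test used in the study could not be applied to FPKM. Relative depth was read from 2380 genes whose values fall at single reads.

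ERSE-I and other elements were searched in 300 bp windows with Python 3.11.15, pandas 2.3.3, numpy 2.4.6 and scipy 1.17.1, intervals are exact at 95%, and figures were drawn with matplotlib 3.10.9. Of 774 promoter-class peaks of both proteins, 762 name genes of the RefSeq annotation, and 742 lay within 1 kb of the annotated start.

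Named genes are those of the 5 highest promoter-class peaks per time, the 10 called bound genes with the largest fold change, the 10 with the largest bzip28-2 difference among those with a p below 0.01 and replicates that do not overlap, and bound genes in the gene lists or named in the study. Other genes given as examples were chosen after their values were seen. Alternatives were a pseudocount of 0.1, scaling by median ratios, no filter, a mean FPKM of at least 1, no trend, the replicate block, each replicate left out, genes of any class, an adjusted p below 0.05, genes without bZIP60 peaks, and other rules for overlap and for ERSE-I. The scripts were tested on simulated data.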

Additional observations from a re-analysis of the deposited data

Results flagged for a closer look

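These results are given because the effect of Tm differed between a mutant and Col-0 with limma at an adjusted p below 0.05 over all genes, which was met at 12 h alone. In bzip28-2 the response of 8 bound genes was lower: P58IPK (-1.01), PDIL1-1 (-0.69), GFAT (-0.81), ROC7 (-0.60), AT2G20670 (-0.76), CSLB04 (-0.66), XTH14 (-1.69) and AT5G02580 (-1.70). In 4 it was higher: AT5G54165 (1.19), AGP16 (0.68), AT5G25940 (0.55) and AT1G42980 (0.68). The adjusted p of these 12 ran from 0.0198 to 0.0489. The first 5 genes named hold ERSE-I in their peaks, and CSLB04, a cellulose synthase-like gene, XTH14, AT5G02580 and the 4 higher ones do not.

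In bzip60-2 the response was lower in AT1G42980 (-1.0), AT1G78820 (-1.36), AT3G03855 (-1.07), AT4G38560 (-2.14), CSLB04 (-1.51) and DPL1 (-0.65), the last a sphingosine phosphate lyase. It was higher in the arabinogalactan protein gene AGP12 (1.14), in AT3G49130 (1.55) and in ACBP1, an acyl-CoA binding protein gene (0.60). The adjusted p of these 9 ran from 0.0217 to 0.0469, and none of the 9 holds ERSE-I in its peak. CSLB04 was lower in both mutants, which were compared with the same Col-0 libraries. AT1G42980 is listed at 0 in every bzip60-2 library.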

How the results depend on the processing

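No result reversed under any alternative. Of 158 alternatives for counts and shares 125 stayed within the limits set, and of 854 for named genes 703 kept their call and 151 lost it. Asking that both proteins' peaks score over their list's median gave 161 peaks. ERSE-I was in 17.2% of peaks with 1 mismatch and in 17.5% of those scoring over the median. The 19 calls of Tm against DMSO at 0 h became 10 without a filter. The 10, 21 and 8 calls in bzip28-2 at 0, 12 and 24 h became 0, 12 and 0 at an adjusted p below 0.05, and the 12 h count became 34 with genes of any class. In bzip60-2 the 2, 17 and 11 calls became 0, 9 and 0 at an adjusted p below 0.05, the 2 became 1 with scaling, 0 with a mean FPKM of at least 1 and 1 with the trend on the mean log2 fold change, an alternative chosen after seeing the data, as was leaving out genes whose peaks lie in repeated DNA, and the 11 became 7 without a filter and 17 with genes of any class. The cause was not tested. Leaving out a replicate gave 1 to 9, 40 to 43 and 28 to 46 calls of Tm against DMSO at 0, 12 and 24 h, 6 to 12, 15 to 23 and 6 to 11 in bzip28-2, and 1 to 3, 12 to 20 and 4 to 13 in bzip60-2. At 24 h in bzip28-2, 11 genes were called without its replicate 2. Deviations of same-numbered Tm and DMSO libraries from their group means correlated at -0.28 to 0.13, and 5 of 27 pairs exceeded 0.1, so no block was used for Tm against DMSO. The mutant counts use the fold change per number, as the study does. With the replicate block the calls of Tm against DMSO were 0, 44 and 31 at 0, 12 and 24 h, with 50 genes at an unadjusted limma p below 0.05 at 0 h, and without the numbers the mutant counts became 12, 21 and 10 and 2, 20 and 13. Scaling moved the median of all genes by over 0.1 at 12 h alone, where it was 0.08 and became -0.05. FPKM give no absolute depth, so no counting interval is given for an expression value.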
